A study of Mus musculus with 2 samples.

Results

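The 8 cholesterol synthesis enzymes examined here were Hmgcs1, Mvk, Idi1, Fdps, Fdft1, Sqle, Lss and Cyp51. They were selected by gene symbol, and all 8 were found among the 39695 gene entries of each RNA-seq library. Whole testes of mice at postnatal day 9 (P9) gave 1 library from control and 1 library from Bcas2 F/-;Vasa-Cre males. Both genotypes carried a floxed and a deleted allele of Bcas2, which encodes a spliceosome protein, and only the Bcas2 F/-;Vasa-Cre males also carried Vasa-Cre, a recombinase transgene active in germ cells, and are called mutant from here on. The floxed allele was therefore left intact by design in the somatic cells of these testes. The strain is given as C57BL/6 in the labels and as a line of mixed background in the methods, and the number of mice behind each library is not stated in the sources used here.

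Cholesterol is built in the cytosol and endoplasmic reticulum from acetyl-CoA. The mevalonate branch turns acetyl-CoA into isoprenoid units and joins them to squalene, and the sterol branch closes squalene into lanosterol and trims it to cholesterol. When sterols in the membrane are low, the transcription factor SREBP-2 is released and activates most genes of both branches together. In the testis, Leydig cells use cholesterol to make testosterone, Sertoli cells supply sterols to germ cells, and late intermediates of the sterol branch accumulate as germ cells mature.

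The values were deposited as RPKM, reads per kilobase of gene length and per 1000000 counted reads. Levels can therefore be compared between genes only as far as the gene lengths used are comparable. They rest on 19918750 counted reads in control and 19331687 in mutant testes. Because each genotype had 1 library, the differences described here lack a replicate check and carry no p-value. Intervals are 95% Clopper-Pearson intervals of the log2 RPKM ratio, without the pseudocount of 1 that the log2 ratios carry, from the reads behind each value, and they cover counting error only. Bcas2 itself was at 39.5 RPKM in control and 25.7 in mutant testes, which is 64.9% of the control value.

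The promoters of 3 of the enzymes are shown because Hmgcs1 and Mvk were lower in mutant testes and Lss was not. Each run covers 250 bases before and 50 bases after the annotated start, 5′ to 3′ on the strand of the gene, and was taken from RefSeq on GRCm38.p6. The Hmgcs1 window lies at chr13:119690101-119690400, the Mvk window at chr5:114444019-114444318 and the Lss window at chr10:76531355-76531654, all on the plus strand. Capitals mark TCACNCCA, a core of the sterol regulatory element to which SREBP binds, and CCAAT, the box bound by NF-Y, each in either orientation.
Hmgcs1: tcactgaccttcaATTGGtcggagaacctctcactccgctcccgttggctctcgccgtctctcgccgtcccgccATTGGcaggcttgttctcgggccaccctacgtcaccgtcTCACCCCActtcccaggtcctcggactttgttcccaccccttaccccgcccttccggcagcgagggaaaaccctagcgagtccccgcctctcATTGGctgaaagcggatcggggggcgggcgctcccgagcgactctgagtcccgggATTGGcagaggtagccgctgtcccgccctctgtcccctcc
Mvk: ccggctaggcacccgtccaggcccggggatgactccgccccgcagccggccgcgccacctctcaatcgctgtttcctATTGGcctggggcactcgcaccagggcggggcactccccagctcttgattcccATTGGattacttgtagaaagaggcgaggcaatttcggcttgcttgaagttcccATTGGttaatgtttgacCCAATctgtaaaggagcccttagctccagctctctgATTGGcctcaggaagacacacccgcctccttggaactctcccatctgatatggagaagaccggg
Lss: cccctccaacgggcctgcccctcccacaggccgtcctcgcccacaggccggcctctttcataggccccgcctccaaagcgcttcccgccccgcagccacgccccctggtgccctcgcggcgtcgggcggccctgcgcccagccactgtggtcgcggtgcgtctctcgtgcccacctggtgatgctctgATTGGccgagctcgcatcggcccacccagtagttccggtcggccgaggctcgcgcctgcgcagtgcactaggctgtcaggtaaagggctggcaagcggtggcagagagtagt
Promoter windows were matched for 5 of the 8 enzymes, these 3 with Idi1 and Cyp51. CCAAT was found in 5 of 5 windows, against 37.4% of 32851 mouse promoters of the same length. It began at −237, −176, −45 and 10 in Hmgcs1, counted from the RefSeq start on which the window was set, and at −62 in Lss. For Hmgcs1, Lss, Idi1 and Cyp51 the RefSeq start differs from the gene start in the annotation given below, and for Mvk it is the same. The Mvk window held 5 such boxes and Idi1 had them at −45 and −14. Cyp51, which was also lower in mutant testes, had 1 box, at −29, and Lss likewise had 1. GGGCGG, the GC box bound by Sp1, was also found in 5 of 5 windows, against 35.7% of all promoters. No match of one motif overlapped a match of another in these windows. Of these 5 windows TCACNCCA was found in that of Hmgcs1 alone, at −137, and in 4.36% of all promoters. Among 15 promoters of 12 other enzymes of the pathway, 10 held CCAAT, 11 held GGGCGG and 1, that of Msmo1, held TCACNCCA. These are matches of letters and not sites shown to be bound.

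Both branches of the pathway were well expressed at P9. The highest level belonged to Hmgcs1, the cytosolic synthase that makes HMG-CoA, at an RPKM of 132.2 in control testes. Fdps and Idi1 followed at 114.8 and 99.7, and all 3 lay above at least 92.1% of the genes tested. Cyp51 at 43.7, Fdft1 at 36.8, Sqle at 30.2, Mvk at 19.2 and Lss at 15.7 completed the order. The 3 abundant enzymes all act before squalene, whereas Lss and Mvk lay near the middle of the testis transcriptome, above 53.3% and 54.9% of the genes tested. In mutant testes Hmgcs1 was again the most abundant, and 3 neighbouring pairs changed places, namely Idi1 with Fdps, Sqle with Fdft1 and Lss with Mvk. The order depends on the authors' gene lengths, which are not given. In control, 2328 reads at an implied length of 1172 bases put Idi1 far above Fdft1, with 2094 reads at 2860 bases. No spread between libraries is known for any of these levels either, so the order is a description.

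**Figure D1:**
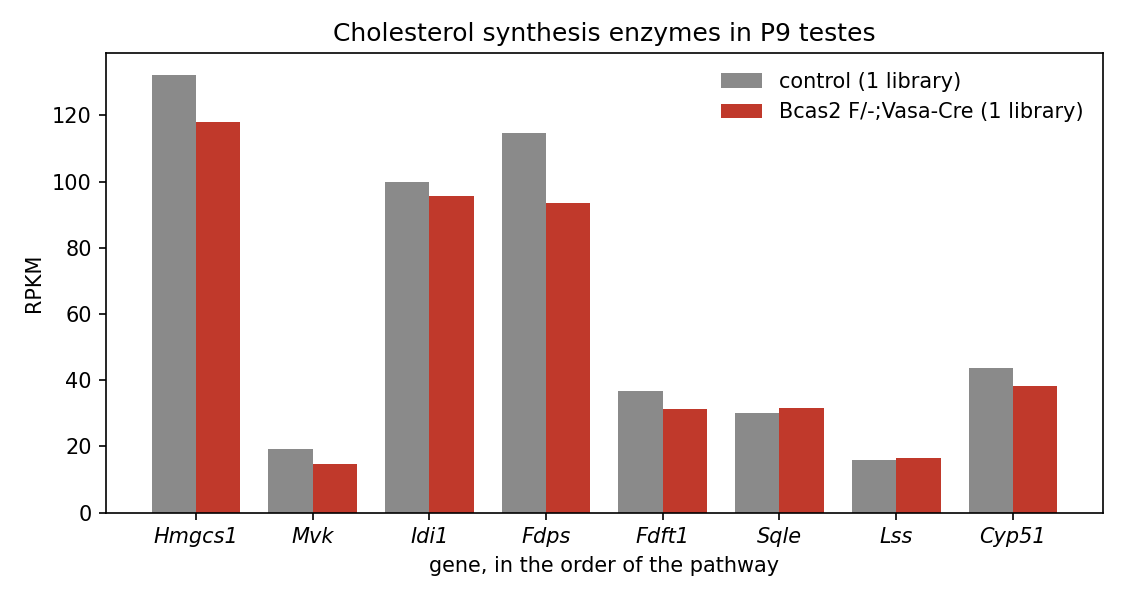
RPKM of the 8 enzymes in the control library (grey bars) and the Bcas2 F/-;Vasa-Cre library (red bars), in the order of the pathway. Red bars are shorter for 6 genes, from Hmgcs1 (132.2 and 118.0) to Mvk (19.2 and 14.8), and slightly taller for Sqle (30.2 and 31.6) and Lss (15.7 and 16.5).

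Of the 8 enzymes, 6 were lower and 2 were higher in mutant than in control testes. The median log2 ratio of RPKM + 1 was −0.18, whereas the median of the 14831 genes tested, those averaging at least 1 RPKM, was 0.02, with 46.3% of them lower. Added together, the 8 enzymes stood at 492.4 RPKM in control and 439.9 in mutant testes. The differences were small. The 5 enzymes before squalene were all lower, with a median of −0.22, and of the 3 later enzymes only Cyp51 was lower. This division at squalene was made after the values were seen.

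Mvk and Fdps were furthest below control. Mvk, the kinase that phosphorylates mevalonate, was at 19.2 RPKM in control and 14.8 in mutant testes, from 494 and 369 reads. The log2 ratio was −0.36, with an interval from −0.58 to −0.18. It was the lowest ratio and the widest interval of the 8, since Mvk had the fewest reads. Fdps, the synthase that makes farnesyl diphosphate, the branch point to sterols, dolichol, ubiquinone and protein prenylation, had an RPKM of 114.8 and 93.7, from 2837 and 2247 reads. Its log2 ratio was −0.29, with an interval from −0.37 to −0.21, so counting error alone leaves it below control.

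Hmgcs1 and Fdft1 were lower by less. Hmgcs1 stood at 132.2 and 118.0 RPKM, from 8514 and 7374 reads. Its log2 ratio was −0.16, with an interval from −0.21 to −0.12. Fdft1, the squalene synthase that commits farnesyl diphosphate to sterols, stood at 36.8 and 31.4 RPKM, from 2094 and 1738 reads. Its log2 ratio was −0.22, with an interval from −0.32 to −0.13. In both genes the interval lay wholly below 0, and the mutant value was 89.2% of control for Hmgcs1 and 85.5% for Fdft1. Idi1, the isomerase that interconverts the basic isoprenoid units, differed least among the enzymes before squalene. It had an RPKM of 99.7 and 95.6, a log2 ratio of −0.06 and an interval from −0.15 to 0.02 that included 0.

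Sqle and Lss, the enzymes that oxidise squalene and close it into a ring, were not lower. Sqle, the epoxidase that adds oxygen to squalene and is a rate-limiting step of the sterol branch, stood at 30.2 RPKM in control and 31.6 in mutant testes. Its log2 ratio was 0.06, with an interval from −0.03 to 0.16. Lss, which closes the ring to lanosterol, had an RPKM of 15.7 and 16.5, a log2 ratio of 0.07 and an interval from −0.07 to 0.21. Both intervals included 0, so no difference in either gene was detectable at this depth, and both upper ends lay below the 1.2-fold limit at 0.263. Cyp51, the lanosterol demethylase whose product is a meiosis-activating sterol, was lower at 38.2 than at 43.7 RPKM, from 1328 and 1565 reads. Its log2 ratio was −0.19, with an interval from −0.30 to −0.09.

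Against fixed folds on the scale of RPKM + 1, Mvk and Fdps were more than 1.2-fold lower, a limit that 9.37% of the genes tested passed, and 0 enzymes were more than 1.2-fold higher, which 8.91% were. Among the 8231 genes averaging 10 to 200 RPKM, a range chosen after the values were seen because it spans all 8 enzymes, 6.74% were lower by more than 1.2-fold and 4.07% were higher by as much. No enzyme passed 1.5-fold, where 1.69% of the genes tested were lower and 1.57% higher. The count of 2 rests on Mvk and on Fdps, which at −0.290 lay just past the limit of 0.263, and Fdft1 at −0.219 was the nearest gene short of it. Between the 5th and 95th percentiles the genes tested ran from −0.37 to 0.34, which holds all 8 enzymes. For genes of 10 to 200 RPKM the range was −0.30 to 0.25, and only Mvk fell outside it.

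The remaining enzymes of the pathway gave a mixed picture. Of 14 such genes, Idi2 was listed at 0 in both libraries, 8 were lower and 5 were higher, and their median log2 ratio was −0.06. Among the early enzymes, Mvd, which decarboxylates mevalonate diphosphate, was lowest, with an RPKM of 24.8 and 17.7 and a log2 ratio of −0.47. Acat2, the thiolase at the entry to the pathway, had an RPKM of 46.3 and 35.1, a log2 ratio of −0.39. Pmvk, the kinase after Mvk, had a log2 ratio of −0.06. Over the whole list, 9 of 9 enzymes tested before squalene were lower, with a median of −0.22. Of these, 4, Mvk and Fdps among them, were more than 1.2-fold lower. Among all genes tested 46.3% were lower and 9.37% were more than 1.2-fold lower. The 9 include the 5 enzymes whose values, once seen, prompted the division at squalene, so the count is not an independent check of it. The intervals of Idi1 and Pmvk were among those that included 0.

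From squalene on, 5 of 12 enzymes were lower and 7 were higher, with a median of 0.05. Their summed RPKM went the other way, from 330.6 in control to 317.5 in mutant testes. Besides Cyp51, the lower ones included Lbr at −0.29, a sterol reductase that also anchors chromatin to the nuclear lamina, Hsd17b7 at −0.24, a sterol ketone reductase, and Dhcr7 at −0.22, a reductase at the end of the pathway. The higher ones besides Sqle and Lss were Sc5d at 0.17, Ebp at 0.16, Msmo1 at 0.11, Tm7sf2 at 0.09 and Nsdhl at 0.04. Sc5d introduces a double bond into the sterol ring, Ebp moves one and Tm7sf2 reduces one, and Msmo1 and Nsdhl take part in removing methyl groups. The intervals of Msmo1 and Sc5d lay above 0, at 0.01 to 0.22 and 0.02 to 0.34, and those of Sqle and Lss did not. Over all 22 enzymes, 14 were lower and 7 were higher, 5 were lower by more than 1.2-fold and 0 were higher by as much. Among all genes tested 46.3% were lower, 9.37% were lower by more than 1.2-fold and 8.91% were higher by as much.

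**Figure D2:**
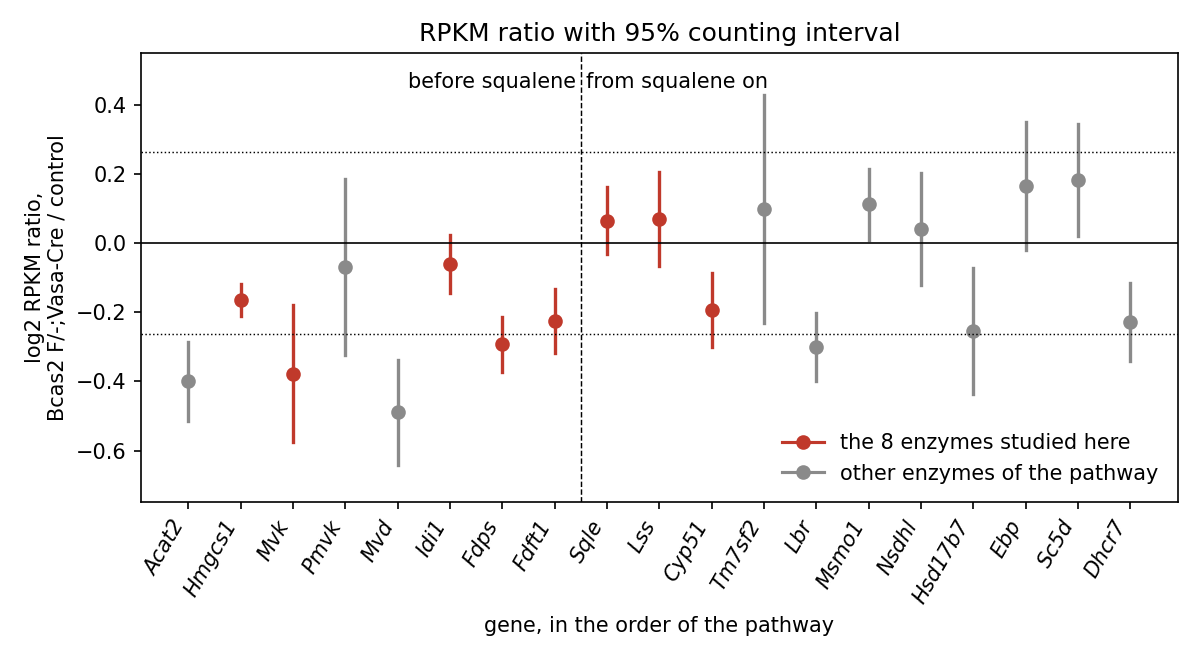
Log2 RPKM ratio of Bcas2 F/-;Vasa-Cre over control testes, without a pseudocount, for 19 enzymes in pathway order, the 8 enzymes in red and the others in grey. Bars are 95% counting intervals, dotted lines mark 1.2-fold, and the dashed line marks squalene: all 8 points to its left lie below 0, whereas 7 of the 11 to its right, Sqle and Lss among them, lie above 0.

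The genes that sense sterols and activate the enzymes differed little and in both directions. Srebf2, which encodes SREBP-2, was at 40.8 RPKM in control and 37.7 in mutant testes, a log2 ratio of −0.11. Scap, its escort and sterol sensor, had 163.7 and 167.8 RPKM, and Srebf1, which encodes the related SREBP-1, had 56.1 and 58.5. The proteases Mbtps1 and Mbtps2, which free SREBP from the membrane, had log2 ratios of 0.14 and 0.10. Insig1, which retains Scap and is itself a target of SREBP, was the lowest of the 7 genes, at 49.9 and 42.2 RPKM and a log2 ratio of −0.24. Insig2, its relative, had a log2 ratio of 0.09. Intervals lay below 0 for Insig1, at −0.32 to −0.16, and Srebf2, at −0.18 to −0.05. That of Mbtps1 lay above 0, at 0.09 to 0.19, and those of Srebf1, Scap, Insig2 and Mbtps2 included 0. In all, 2 of the 7 were lower and 5 were higher, 0 passed 1.2-fold and their median was 0.06. Among all genes tested 46.3% were lower, 9.37% were lower by more than 1.2-fold and 8.91% were higher by as much.

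Lists around the pathway had medians close to that of all genes. Sterol uptake and transport had a median of 0.002 over 8 genes, from Vldlr at −0.11 to Scarb1, the HDL receptor, at 0.24. Sterol efflux and its LXR regulators had a median of −0.10, from Apoe at −0.18 to Abca1 at 0.17. The isoprenoid branches that draw on the product of Fdps, with Nus1 the most abundant at 45.6 and 49.2 RPKM, had a median of −0.08, from Fntb at −0.24 to Pdss1 at 0.23. Esterification had a median of −0.04, from Lipe at −0.09 to Nceh1 at 0.20, with Soat1 at 18.3 and 17.4 RPKM. In fatty acid synthesis, the branch of SREBP-1, the median was −0.004, from Acss2 at −0.29 to Scd2 at 0.22, with Me1 the most abundant at 207.2 and 222.8 RPKM. Acss2, which makes acetyl-CoA from acetate, was the only gene of these 5 lists past 1.2-fold. Among all genes tested 9.37% were lower by more than 1.2-fold and 8.91% were higher by as much.

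In whole testes, fewer cells of a type and less RNA per cell cannot be told apart, and marker lists of the testis cell types differed between the libraries too. Of 10 germ cell markers, 8 were lower in mutant testes, against 46.3% of all genes tested. More than 1.2-fold lower were 7 of them, against 9.37% of all genes tested. The summed RPKM of the 10 was 529.6 in control and 402.7 in mutant testes. Sall4 was lowest, at 26.6 and 15.9 RPKM, Dazl was the most abundant, at 165.1 and 124.5, and Nanos2 was the highest in ratio at 0.49. The median of the germ cell markers, −0.38, was further below 0 than that of the 8 enzymes. In replicated real-time RT-PCR at P9 the authors reported similar mRNA of Ddx4, Dazl, Kit, Stra8, Sohlh1, Sohlh2 and Nanos2, and lower mRNA of Sycp3. Their counts of spermatogonia at later ages were not significantly different. All 7 Sertoli cell markers tested were higher, from Fshr at 0.004 to Amh at 0.36, with Rhox5 listed at 0 in both libraries, and their summed RPKM, mostly Clu, was 3281 and 3560. The intervals of Fshr, Gata4 and Cldn11 included 0, and Fshr and Gata4, at 0.004 and 0.008, lay below the median of all genes tested. The part of these cell types in the values of the 8 enzymes was not tested.

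Steroidogenic genes of Leydig cells, the testis cells that consume cholesterol, were higher in 8 of 10 tested, with a median of 0.15. The other 2 were lower, as were 46.3% of all genes tested. Among the higher ones the intervals of Nr5a1, Lhcgr and Insl3 included 0, and so did that of Cyp11a1, which was lower. Cyp17a1 stood at 94.8 and 152.1 RPKM, a log2 ratio of 0.68, while Hsd3b1, the most abundant, was the lowest in ratio, at 189.4 and 168.1 RPKM. The summed RPKM of the Leydig list was 688.8 in control and 761.8 in mutant testes, a difference that came mostly from Cyp17a1. It differed in the opposite direction to the summed RPKM of the 8 enzymes. Peritubular myoid, macrophage and endothelial markers had medians of −0.05, −0.12 and −0.06. Their extremes were Acta2 at −0.13 and Cnn1 at 0.09, Csf1r at −0.23 and Mrc1 at 0.10, and Tek at −0.22 and Kdr at 0.08, and Cdh5 was the most abundant endothelial marker at 18.7 and 17.9 RPKM. Red cell genes had a median of −0.38, from Slc4a1 at −3.38 to Hbb-bs at 0.11, and a summed RPKM of 824.0 and 795.0.

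**Figure D3:**
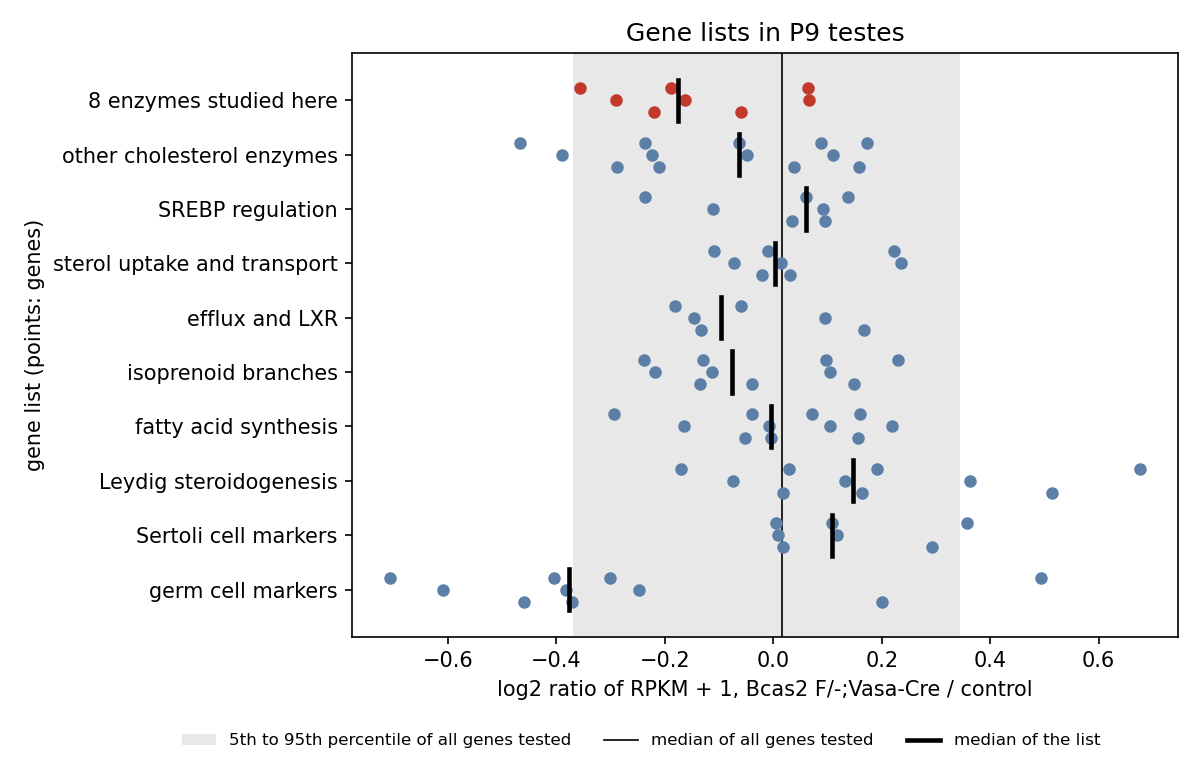
Log2 ratio of RPKM + 1, mutant (Bcas2 F/-;Vasa-Cre) to control, for single genes (points) of 10 lists, with the median of each list (thick bar), the median of all genes tested (thin line) and their 5th to 95th percentile (grey band). The 8 enzymes (red, median −0.18) lie between the germ cell markers (median −0.38) and the Sertoli cell markers (median 0.11), and all 8 are inside the band.

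In the annotation, GENCODE M21 on GRCm38, the enzymes lie apart from each other on 6 chromosomes. Hmgcs1 is at chr13:119690379-119708260 and Idi1 at chr13:8885501-8892451 on the plus strand, Mvk at chr5:114444269-114460591 on the plus strand and Cyp51 at chr5:4081145-4104746 on the minus strand. Fdps is at chr3:89093588-89101959 and Fdft1 at chr14:63145150-63179578 on the minus strand, and Sqle is at chr15:59315077-59331192 and Lss at chr10:76531588-76557138 on the plus strand. Some of their reads could be split or shared with other genes. Idi1 has a processed pseudogene, Gm13502, that is 100% identical over 684 bases and had 8 and 4 reads, against 2328 and 2167 on Idi1. The copies of Fdps with a value had 2 and 1 reads in all, and that of Fdft1 had 1 and 3. Whether counting used the strand is not stated in the sources used here, and without strand the reads of overlapping genes cannot be told apart. Fdps shares 1124 exon bases with Gm43738, a protein-coding gene on the same strand that has no entry in either library. Fdft1 shares 774 exon bases with Ctsb on the opposite strand, a gene at 73.8 and 70.9 RPKM, and Cyp51 shares 166 with Akap9, at 56.2 and 56.7 RPKM. Exons of Hmgcs1, Idi1 and Lss share 557, 323 and 381 bases with non-coding or unclassified transcripts on the opposite strand. Those at Hmgcs1 and Idi1 have no entry either, and that at Lss was at 0.08 RPKM in both libraries. The values of these 6 enzymes are therefore less certain than those of Mvk and Sqle, for which no overlapping exon and no near-identical copy was found.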

How the data were processed

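Whole testes of P9 mice gave 1 control and 1 Bcas2 F/-;Vasa-Cre library, grouped by the genotype in the labels. The authors aligned paired-end reads to mm10 with TopHat2 2.0.9, as the submitters' processing notes name them, tallied them on genes with HTSeq, and deposited the result as RPKM. Their annotation release, gene lengths and strand setting are not given in the sources used here.

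The log2 ratio of RPKM + 1 was computed for genes averaging at least 1 RPKM, which understates the change of low genes, and folds of 1.2 and 1.5 were counted. Of the entries, 37692 (95.0%) were matched by Ensembl identifier to GENCODE M21. RPKM values are whole multiples of what 1 read is worth, so both library sizes and, for 99.8% of 21210 genes above 0 in both libraries, a pair of whole reads were recovered as the whole multiple whose implied gene length was a whole number nearest the mean transcript length in GENCODE M21. A gene's reads could still be wrong by a whole factor, which would change the width of its interval but not its ratio. In 1 simulated pair of libraries, 99.93% of 21216 genes got their exact reads back. Its genes had the rounded mean transcript lengths at which the recovery aims. It therefore cannot show how often reads are right where the authors' lengths differ. Implied lengths did differ for some enzymes, such as Hmgcs1, at 3233 bases against a mean of 2203. Clopper-Pearson intervals at 95% came from the reads recovered from the deposited values. Near-identical copies were genes or pseudogenes with at least 90% identity to a transcript of an enzyme over at least 50% of their own length.

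The enzymes and all gene lists were chosen with earlier results of these data known. The genes named are the 8 enzymes, the other cholesterol enzymes (values of some single genes are not reported here), the genes of SREBP regulation, Bcas2 and, from each other list, the most abundant gene and those with the highest and lowest ratio, with copies of the enzymes; overlapping genes were named in addition, after their values were seen. Alternatives were pseudocounts of 0.1 and 0.01, other scalings, no filter or a minimum RPKM of 5, and copies added to their parents. No pseudocount and the range of 10 to 200 RPKM were chosen after seeing the data. The software was BLAST+ 2.17.0, pandas 2.3.3, scipy 1.17.1, numpy 2.4.6 and matplotlib 3.10.9 under Python 3.11.15.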

Additional observations from a re-analysis of the deposited data

How the results depend on the processing

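The median log2 ratio of the 8 enzymes was between −0.19 and −0.15 under 9 alternatives (pseudocounts, scalings, filters, copies added to their parents), and each enzyme kept its direction under 5 alternatives. The count of 2 enzymes more than 1.2-fold lower held under the 8 alternatives for which it was computed, which leave out the addition of copies, although Fdps came to −0.2633, at the limit, when RPKM was rescaled to the same sum in both libraries. That rescaling raises log2 RPKM ratios by 0.028, and those of RPKM + 1 by an amount that differs between genes. The median of the other cholesterol enzymes moved from −0.06 to −0.14 with genes of 10 to 200 RPKM only, because Tm7sf2 then drops out. Some medians changed sign. That of sterol uptake and transport went from 0.002 to −0.01 when the all-gene median was set to 0 and also without a filter. For fatty acid synthesis the median went from −0.004 to 0.02 under rescaling. That of the macrophage markers went to 0.10 with genes of 10 to 200 RPKM, where only Mrc1 remains. The median of the Sertoli cell markers, 0.11, was 0.06 without a filter, which lets in Rhox5. The shares of all genes past a fold, beside which the enzymes are counted, moved by more than 1.5 times in several settings. Past 1.2-fold, 5.97% were lower without a filter. Higher by as much were 5.14% among genes averaging 5 RPKM or more and 4.07% among genes of 10 to 200 RPKM. The share past 1.5-fold was 3.08% lower and 3.06% higher with a pseudocount of 0.1, and 3.27% and 3.31% with 0.01. With no pseudocount it was 3.26% and 3.27%. Among genes averaging 5 RPKM or more it was 0.975% and 0.431%, and among genes of 10 to 200 RPKM 0.778% and 0.194%. Under rescaling 2.69% were higher. With 1 library per genotype the spread between animals is unknown, and no alternative addresses it. Counting error limits Mvk most, whose interval spans −0.58 to −0.18.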
